A study of Mus musculus with 10 samples.

Results

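The genes S100a10, S100a11, S100a6 and S100a4 encode small calcium-binding proteins of the S100 family, and their RNA was followed through 10 single-cell libraries of normal and injured mouse kidney cortex. They are 4 of the 28808 gene symbols in the deposited tables, and all 4 have a row in every table. They were selected on their measured levels, which earlier work on these files had found higher in tubular cells after injury, so their levels by day are a description without a test. Only RNA was counted, and nothing here measures the proteins. The libraries were made by Drop-seq, in which a droplet joins 1 cell with 1 barcoded bead and the 3' ends of its transcripts are sequenced.

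All tissue came from mice aged 4 weeks. Normal kidneys gave 1 library, called the control here. From injured kidneys, days 1, 2 and 4 had 1 library each and days 7, 11 and 14 had 2 each. The labels state neither the kind of injury nor strain, sex or animal, so the spread between the 2 libraries of a day may be technical, and every p-value measures no more than the spread between libraries.

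The tables held 64803 cell barcodes and 173806985 unique molecular identifiers (UMIs, each taken as 1 captured transcript), with 7091848 to 31632205 UMIs per library. After filtering, 50158 cells were used, and no pair of libraries shared more than 11 barcodes. Cells were sorted into classes by their marker UMIs, and 38270 of them (76.3%) fell in the tubular class, 25592 of these as proximal-like cells. Each class had 3 to 6 of its own markers among its 10 leading genes, which the gate itself brings about. Markers of other cells were present in the tubular sums: the 10 macrophage markers summed to 7.92 counts per 1000000 UMIs (CPM) in the control and to between 12.5 and 687 CPM in the injured libraries, highest in the first day 7 library, with 8 to 10 of the 10 markers detected. The 5 erythroid markers ranged from 17.3 CPM in the control to 2369 CPM in the first day 11 library. Lymphoid markers stood at 1.35 CPM in the control and at 2.19 to 87.9 CPM after injury, highest in the second day 7 library. Stromal and mural markers stood at 7.37 CPM in the control and at 5.29 to 108 CPM after injury, highest in the first day 7 library. The gate let a tubular cell carry at most 1 distinct marker of each other class, with the macrophage marker Lyz2 not counted. It thus limits these sums, except for the erythroid markers, which were not in the gate. The part of such RNA in the results on tubular cells was not tested.

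S100 proteins are paired EF-hand calcium sensors: calcium opens a groove through which each pair grips a partner protein. S100A10 differs in that its EF-hands no longer bind calcium and it is held instead by annexin A2, with which it forms a complex under the plasma membrane that carries channels to the surface and gathers plasminogen. S100A11 is best known as the partner of annexin A1, S100A6 (calcyclin) as the partner of the calcyclin-binding protein, and S100A4 as a binder of non-muscle myosin that is often used as a marker of fibroblasts and of motile leukocytes.

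All 4 genes lie on chromosome 3 of the mouse genome (positions from RefSeq, GRCm38.p6), in 2 neighbouring pairs. S100a4 spans chr3:90603770-90606045 and S100a6 chr3:90612894-90614414, with 6848 bases between them. S100a11 spans chr3:93520496-93526288 and S100a10 chr3:93555117-93564645, with 28828 bases between them. Because the 4 genes were selected for being higher together after injury, the 250 bases before the start of those found in the RefSeq promoter table (GRCm38.p6, plus strand; 3 of the 4 genes matched) are shown with their matches to the AP-1 motif TGACTCA, read on both strands, in capitals.
S100a11, chr3:93520246-93520495: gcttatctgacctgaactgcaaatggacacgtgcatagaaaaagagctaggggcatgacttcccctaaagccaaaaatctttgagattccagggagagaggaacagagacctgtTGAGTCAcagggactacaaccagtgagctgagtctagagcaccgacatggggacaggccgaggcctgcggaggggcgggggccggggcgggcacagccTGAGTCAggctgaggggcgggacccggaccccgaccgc
S100a6, chr3:90612644-90612893: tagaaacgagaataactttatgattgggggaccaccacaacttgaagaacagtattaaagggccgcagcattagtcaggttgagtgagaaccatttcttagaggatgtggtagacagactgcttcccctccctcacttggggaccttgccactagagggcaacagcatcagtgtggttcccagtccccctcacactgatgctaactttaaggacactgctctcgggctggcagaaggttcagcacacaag
S100a4, chr3:90603520-90603769: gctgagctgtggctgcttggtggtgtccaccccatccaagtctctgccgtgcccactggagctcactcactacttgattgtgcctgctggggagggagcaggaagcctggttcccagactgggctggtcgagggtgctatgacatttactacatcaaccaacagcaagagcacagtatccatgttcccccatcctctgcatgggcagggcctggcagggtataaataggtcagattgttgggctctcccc
The S100a11 window held 2 AP-1 matches, which began 136 and 38 bases before the gene start, and the S100a6 and S100a4 windows held none. Across 32851 windows of the same length, 4.46% held the AP-1 motif. The TEAD motif GGAATG (in 12.6% of windows) and the STAT motif TTCCNGGAA (in 0.913%) matched none of the 3 windows on either strand. The core ACGTG of the hypoxia response element (in 16.6%) matched in S100a11 alone, once on each strand in overlapping letters. These are matches of letters and not evidence of binding.

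Levels are given as CPM, taken from the UMIs summed over the cells of a class in a library, and no level is compared between different genes. In tubular cells S100a6 was nearly absent from the control and was about 840 times the control level by day 1, whereas S100a10 and S100a11 were already present and were higher by 4.24 times and 10.53 times on that day. S100a4 stood at 0.28 CPM in control tubular cells and at no more than 29.4 CPM after injury, and it was higher in the macrophage-like and endothelial-like cells of each library than in its tubular cells. All 4 genes were lower on day 11 than on day 7 in tubular cells. On day 14 the means were 2.45 times the control for S100a6, 2.01 times for S100a11, 1.36 times for S100a10 and 1.14 times for S100a4. Both day 14 libraries were above the control for S100a6, S100a10 and S100a11, and 1 of the 2 for S100a4. Over all genes tested in tubular sums, 17% were called higher on day 7 than in the control and 21.7% lower on day 11 than on day 7; the 4 genes were chosen on such differences, so nothing is read from their number.

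S100a10, the annexin A2 partner, stood at 121 CPM in the tubular cells of the control. It stood at 513 CPM on day 1, 353 CPM on day 2 and 677 CPM on day 4. The 2 libraries of day 7 gave 475 and 642 CPM, those of day 11 255 and 271 CPM, and those of day 14 161 and 166 CPM. By CPM every injured library was above the control, and the libraries of days 7, 11 and 14 did not overlap each other. With totals scaled by edgeR's TMM factors, days 7 (328 and 460) and 11 (305 and 335) did overlap. The gene was chosen on its tubular levels, so nothing is read from the separation. The mean was 559 ± 118 CPM on day 7, 263 ± 11.1 CPM on day 11 and 164 ± 3.68 CPM on day 14 (SD, n = 2 each). Day 14 was 1.36 times the control.

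In each tubular segment class S100a10 was above its control from day 1 to day 11, to different heights. In proximal-like cells it went from 117 CPM in the control to 546, 272 and 670 CPM on days 1, 2 and 4, to 523 and 740 CPM on day 7, to 237 and 258 CPM on day 11 and to 168 and 164 CPM on day 14. In thick-limb-like cells, which reabsorb salt in the loop of Henle, it went from 104 CPM to a highest value of 631 CPM on day 4 and was at 145 and 175 CPM on day 14. In principal-like cells of the collecting duct, which take up water and sodium, it was 229 CPM in the control, 610 CPM on day 4, 423 and 454 CPM on day 11 and 204 and 217 CPM on day 14. The principal-like cells were thus higher than the control through day 11 and just below it on day 14.

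S100a11, the annexin A1 partner, stood at 53.1 CPM in control tubular cells. It was at 560, 481 and 507 CPM on days 1, 2 and 4, at 701 and 973 CPM on day 7, at 186 and 222 CPM on day 11 and at 94.6 and 119 CPM on day 14. It was the only one of the 4 genes with its highest day mean in tubular cells on day 7, at 837 ± 192 CPM (SD, n = 2), 15.8 times the control. The 9 injured libraries were all above the control, and on day 14 the mean of 107 ± 16.9 CPM (SD, n = 2) was still 2.01 times the control.

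The control level of S100a11 was low in some segments and already high in others. Control proximal-like cells held 18.9 CPM, and those of day 7 480 and 666 CPM, a mean 30.3 times the control; on day 14 they held 69.6 and 76.1 CPM, 3.85 times the control. Control principal-like cells already held 364 CPM. These cells reached 1100, 1338 and 854 CPM on days 1, 2 and 4 and 951 and 1369 CPM on day 7. On day 11 they were still at 967 and 1359 CPM, while the proximal-like cells of the same libraries had 86.2 and 130 CPM. The mean level of principal-like cells was 1160 ± 295 CPM on day 7 and 1163 ± 277 CPM on day 11 (SD, n = 2 each), within the spread of the libraries. On day 14 the principal-like cells held 330 and 510 CPM, 1 library below and 1 above the control.

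Thick-limb-like cells had 58.6 CPM of S100a11 in the control, a highest level of 978 CPM on day 2, and 165 and 192 CPM on day 14. Intercalated-like cells, the acid-base cells of the collecting duct, had 138 CPM in the control and 799 CPM on day 2. Podocyte-like cells, the filter cells of the glomerulus, held 464 CPM of S100a11 in the control and 554 to 1230 CPM in the 6 injured libraries with at least 20 such cells. Podocyte-like cells were thus above control tubular cells in S100a11 without any injury.

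S100a6, calcyclin, had the widest range of the 4 genes in tubular cells. Control tubular cells held 37 UMIs among 25239860, or 1.47 CPM (exact Poisson 95% interval 1.03 to 2.02). The level was 1232 CPM on day 1, 866 CPM on day 2 and 1621 CPM on day 4. It was 730 and 841 CPM on day 7, 56.9 and 20.8 CPM on day 11, and 1.68 and 5.51 CPM on day 14. The 5 libraries of days 1 to 7 all lay at or above 730 CPM and the other 5 at or below 56.9 CPM. S100a6 too was chosen on its tubular levels, so nothing is read from this separation. The day 14 mean was 3.59 ± 2.71 CPM (SD, n = 2), 2.45 times the control, with the first library inside the control's interval.

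**Figure D1:**
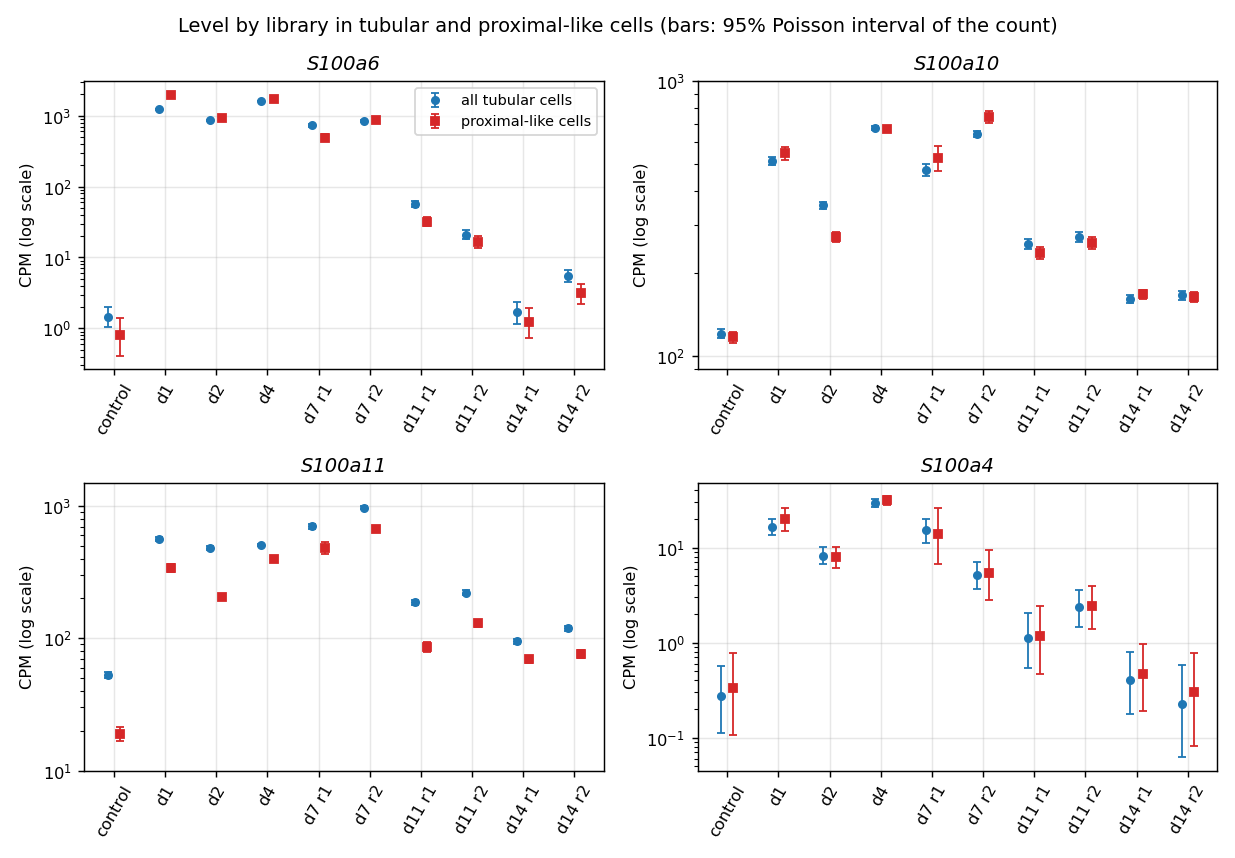
The vertical axis of each panel is the CPM of 1 gene on a log scale, the horizontal axis the 10 libraries (d, day; r, replicate). Circles are all tubular cells, squares proximal-like cells, and bars the exact 95% Poisson interval of the count. S100a6 spans 1.47 to 1621 CPM in tubular cells and S100a10 121 to 677 CPM.

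In proximal-like cells S100a6 went from 0.79 CPM in the control (12 UMIs in 3521 cells) to 1966 CPM on day 1, 940 CPM on day 2 and 1749 CPM on day 4. It was at 490 and 884 CPM on day 7, at 32.1 and 16.5 CPM on day 11 and at 1.21 and 3.10 CPM on day 14. The other segments had lower highest levels. Thick-limb-like cells reached 717 CPM on day 4 from 1.44 CPM in the control, and principal-like cells reached 694 and 447 CPM on day 7 from 1 UMI in the control. Tubular cells that carried too few segment markers for a segment call (the no-segment cells, 4170 in all) held 3331 CPM on day 4, the highest level of any class or library.

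Depth could set how many cells show a UMI, so each cell with at least 1000 UMIs was also thinned to 1000 UMIs. Cells below that depth were left out of the thinned shares, while the shares without thinning cover all cells. At that depth 0.18% of control proximal-like cells had an S100a6 UMI, 45.9% on day 1, 22.4% on day 2, 36.7% on day 4, 29.0% and 22.4% in the libraries of day 7, 0.835% and 0.811% in those of day 11, and 0.14% and 0.18% in those of day 14. Without thinning the shares were 0.341% in the control, 61.4%, 39.9% and 50.5% on days 1, 2 and 4, 36.6% and 37.7% in the libraries of day 7, 1.21% and 1.06% for day 11, and 0.330% and 0.602% for day 14. Day 1 was the highest and day 4 the next on both measures.

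Free RNA in the droplets can carry a transcript of 1 cell type into others, and its part in these levels was not tested. Havcr1, an injury gene of the proximal tubule, stood in thick-limb-like cells at 2.4% to 7.2% of its own proximal-like level in the 5 libraries of days 1 to 7. S100a6 in the same cells stood at 25.2% to 107% of its proximal-like level, S100a10 at 62.6% to 192% and S100a11 at 123% to 474%. For S100a4 the shares were 3.7% to 119%, on 1 to 18 UMIs. In distal-convoluted-like cells Havcr1 was at 10.2% and S100a6 at 23.3% on day 1, and Havcr1 at 10.4% and S100a6 at 15.3% on day 4. On day 2 the shares there were 0% for Havcr1 and 31.7% for S100a6, and in the second day 7 library 1.21% and 26.4%. Intercalated-like cells had Havcr1 at 1.21% to 5.52% and S100a6 at 17.8% to 56.6% in the libraries of days 1 to 7. For S100a4 some shares were below that of Havcr1, such as 3.73% against 5.41% in thick-limb-like cells on day 1 and 7.14% against 9.09% in principal-like cells on day 4.

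S100a4 in tubular cells rested on few UMIs in the control. The control held 7 UMIs, 0.28 CPM, and the injured libraries 16.4, 8.24 and 29.4 CPM on days 1, 2 and 4, 15.1 and 5.15 CPM on day 7, 1.12 and 2.36 CPM on day 11 and 0.41 and 0.23 CPM on day 14. The second library of day 7 lay below days 1, 2 and 4, and the first lay between day 2 and day 1. Macrophage markers were also higher in the first of them (687 against 197 CPM). Among tubular cells of at least 1000 UMIs, thinned to 1000, no more than 1.77% in any library had an S100a4 UMI. Without thinning it was no more than 4.99% of all tubular cells.

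Macrophage-like cells held 66.8 CPM of S100a4 in the control (4 UMIs in 44 cells), 541, 759 and 493 CPM on days 1, 2 and 4, 187 and 386 CPM on day 7, 270 and 362 CPM on day 11 and 114 and 183 CPM on day 14. Every injured library was above the control. Endothelial-like cells held 201 CPM in the control and between 92.4 and 332 CPM after injury, 6 of 9 injured libraries above the control. Lymphoid-like cells had at least 20 cells in 3 libraries only, with 275 CPM on day 4 and 538 and 793 CPM on day 7. Stromal and mural cells, gated on collagen, pericyte and smooth-muscle markers, held 22.6 CPM in the control and at most 53.0 CPM after injury, with 0 UMIs in 2 of 7 injured libraries, where a count of 0 allows up to 38.2 and 107 CPM.

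The classes in which a library's S100a4 and S100a6 UMIs were found moved with the day. Of all S100a4 UMIs in used cells of the control, 65.8% were in endothelial-like and 4.5% in tubular cells. On day 1 tubular cells held the most, 33.2%, against 22.3% in macrophage-like cells. Macrophage-like cells held 57.9% on day 2 and 41.9% on day 4, when tubular cells held 8.75% and 30.9%. On day 7 57.1% and 63.8% were in macrophage-like cells, and on day 14 62.3% and 61.5% were again in endothelial-like cells. For S100a6, 56.7% of control UMIs were in endothelial-like and 7.0% in tubular cells, 76.1% on day 1 were in tubular cells, and 63.2% and 37.9% on day 14 were in endothelial-like cells. For S100a10 49.5% to 90.9% and for S100a11 57.8% to 91.8% of the UMIs were in tubular cells. These shares also follow the number of cells of each class, which ranged for macrophage-like cells from 35 to 1520 per library.

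**Figure D2:**
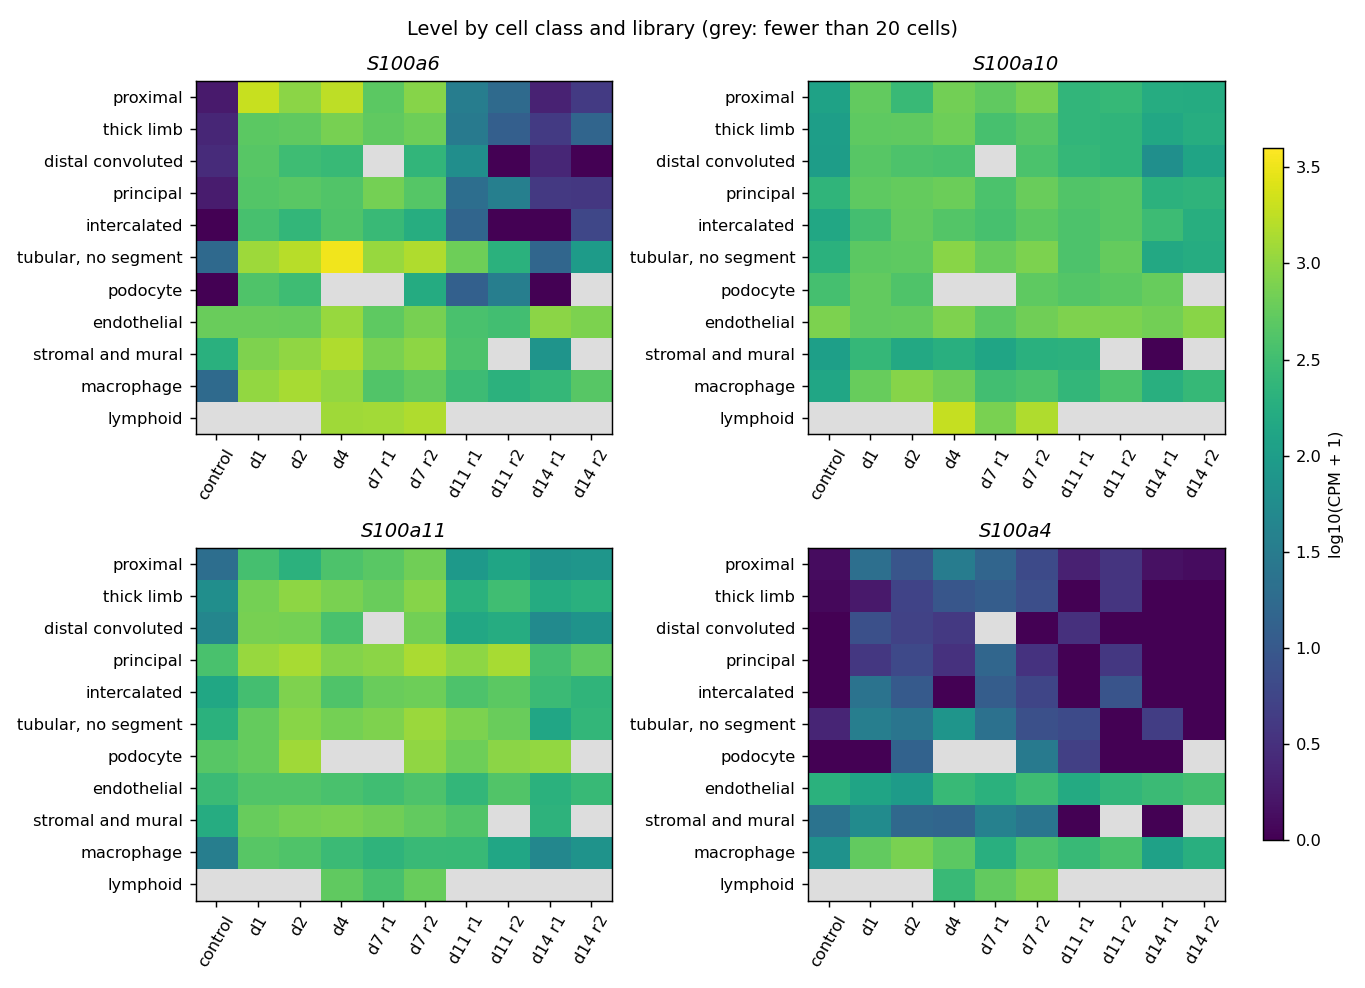
Each panel is 1 gene, with cell classes as rows, libraries as columns and colour for log10(CPM + 1); grey marks fewer than 20 cells. S100a6 is dark in every tubular row of the control and bright from day 1 to day 7, endothelial-like cells hold 328 to 1108 CPM of it throughout, and S100a4 in the tubular rows goes from 1.32 CPM or less in the control to 73.3 CPM in the no-segment cells of day 4.

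Endothelial-like cells, which line the vessels, held S100a6 without injury. Their S100a6 was 592 CPM in the control, 590, 585 and 1108 CPM on days 1, 2 and 4, 502 and 737 CPM on day 7, 367 and 328 CPM on day 11 and 954 and 768 CPM on day 14. Injured libraries lay on both sides of the control, 4 above and 5 below. Their S100a10 was 779 CPM in the control and 496 to 903 CPM after injury, with 3 of 9 injured libraries above the control. Their S100a11 was 281 CPM in the control and 199 to 419 CPM after injury, with 6 of 9 above it.

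Macrophage-like cells, of which the control had 44, held 1 S100a6 UMI in the control, 16.7 CPM. They held 1037, 1339 and 1036 CPM on days 1, 2 and 4, 417 and 539 CPM on day 7, 288 and 203 CPM on day 11 and 252 and 465 CPM on day 14. S100a6 in these cells was thus above the control in all 9 injured libraries, also on day 14, when tubular cells were at 1.68 and 5.51 CPM. Their S100a10 went from 134 CPM to 896 CPM on day 2 and 183 and 254 CPM on day 14. Their S100a11 went from 33.4 CPM (2 UMIs) to 465 CPM on day 1 and 45.7 and 70.5 CPM on day 14.

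Classes of the same library were compared by the mean difference in log2(CPM + 1) over libraries. Because the 4 genes were chosen on their tubular levels, and each difference has tubular cells in at least 1 arm, the differences are a description with no test. The shares of all genes called by a two-sided exact permutation test (sign flips over libraries, Benjamini-Hochberg adjustment) are given as background from which nothing is read.

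Against the tubular cells of the same library, macrophage-like cells had more S100a4, by 5.79 ± 1.25 on the log2 scale (SD, n = 10, higher in 10 of 10 libraries). Across the alternative settings this difference ran from 4.14 to 6.04. Tubular S100a4 lay below 1 CPM in the control and on day 14, so the size there depends on the 1 CPM added. For S100a11 the difference was -0.74 ± 0.68, and macrophage-like cells were higher in 1 of 10 libraries. The difference was 1.94 ± 2.77 for S100a6 and 0.15 ± 0.59 for S100a10, each with macrophage-like cells higher in 6 of 10 libraries, so the spread over libraries was larger than the mean. With at least 50 cells per library, which leaves out the control and both libraries of day 14, the S100a6 difference was 0.55, and under a stricter gate that of S100a11 was -1.16. Over all 11018 genes 17.5% were called higher and 36.3% lower. The S100a6 difference moved with the day: it was 6.56 and 6.16 on day 14, 2.84 in the control and between -0.81 and 0.63 on days 1 to 7.

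Endothelial-like cells had more S100a4 than tubular cells, by 5.40 ± 1.997 (SD, n = 10, higher in 10 of 10). Across the alternative settings this difference ran from 3.75 to 5.68. Endothelial-like cells also had more S100a10, by 1.14 ± 1.05 (higher in 10 of 10). On days 1, 4 and 7 this S100a10 difference was only 0.03 to 0.23, and in the control it was 2.68. For S100a6 the difference was 2.69 ± 3.85 and for S100a11 0.24 ± 1.16, each higher in 5 of 10 libraries. Over all 11288 genes 34.5% were called higher in endothelial-like cells and 27.1% lower.

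Stromal and mural cells had less S100a10 than tubular cells in all 8 libraries with at least 20 such cells, by a difference of -1.96 ± 2.27 (SD, n = 8). The first library of day 14 had 0 S100a10 UMIs in 23 stromal and mural cells, and without it the difference was -1.19. The differences of S100a11, S100a4 and S100a6 were 0.53 ± 0.81, 0.92 ± 1.79 and 1.69 ± 2.60 (SD, n = 8), each within its spread over libraries. Without the control those of S100a4 and S100a6 were 0.45 and 1.03. Over all 11457 genes 6.57% were called higher and 13% lower. S100a4 is used as a fibroblast marker, and in these cells its mean level was 20.8 CPM, against 9.51 CPM in the tubular cells of the same libraries. That level rested on few UMIs (4 in the control). The class also takes in pericyte and smooth-muscle cells, so the level is not that of fibroblasts alone.

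The no-segment tubular cells had more S100a11 than proximal-like cells of their library, by 1.64 ± 1.01 (SD, n = 10, higher in 10 of 10), and more S100a6, by 2.13 ± 1.77 (higher in 9 of 10). On day 1 alone S100a6 was lower in them, by 0.73. The difference was 0.38 ± 0.47 for S100a10 and 0.61 ± 1.05 for S100a4, each within its spread over libraries. Over all 10763 genes 31% were called higher in no-segment cells and 16.7% lower. The no-segment cells include cells of any segment, so this compares 2 gates and not 2 states of 1 segment.

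Tubular cells with at least 1 UMI of Havcr1, which encodes the injury marker Kim-1, were set against those without. S100a10 was higher in the Havcr1-positive cells by 0.55 ± 0.39 (SD, n = 10, higher in 9 of 10 libraries). S100a6 had a mean of 1015 CPM in positive and 268 CPM in negative cells, with a difference of 0.96 ± 1.76 (higher in 8 of 10), within its spread over libraries. In the 5 libraries of days 1 to 7 the S100a6 difference ran from 0.55 to 2.92, all higher in positive cells. S100a6 was lower in positive cells in the second library of day 11 (-0.40, 27 positive cells). The same held in the second library of day 14 (-2.72), where 50 positive cells held 0 CPM. The difference was 0.01 ± 0.47 for S100a11 and 0.11 ± 1.22 for S100a4. Both arms mix segments, and S100a11 levels differ between segments. In proximal-like cells alone S100a11 was 42.9 CPM in positive and 18.0 CPM in negative cells of the control. On day 7 the means were 691 ± 201 and 289 ± 15.2 CPM (SD, n = 2 each), and on day 11 287 and 105 CPM. S100a6 stood at 919 ± 423 and 127 ± 28.5 CPM there on day 7. These proximal-like values are a description with no test. Over all 10568 genes 4.39% were called higher in positive cells and 8.39% lower.

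**Figure D3:**
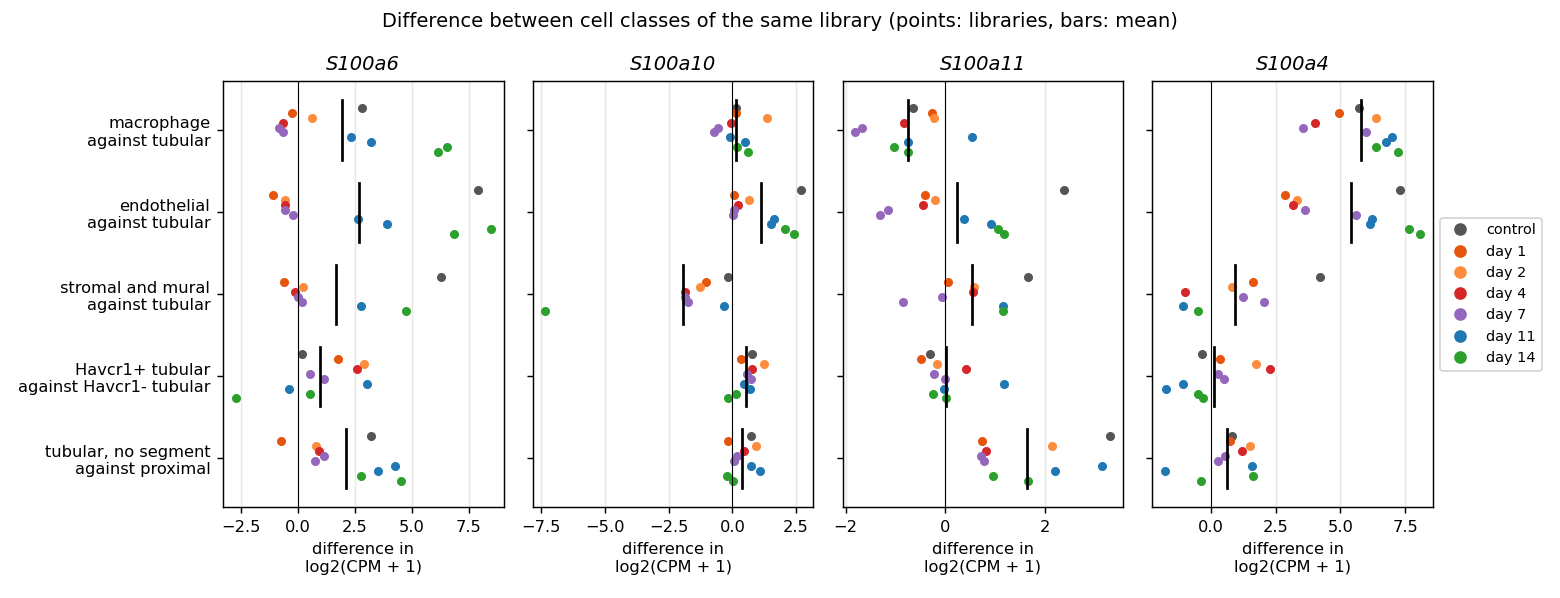
Each point is 1 library, coloured by day, at its difference in log2(CPM + 1) between the 2 classes named at the left, and bars are means over libraries. S100a4 lies right of 0 in all 10 libraries for macrophage-like and endothelial-like cells, and S100a6 moves from below 0 on days 1, 4 and 7 to 6.16 or more on day 14 in macrophage-like cells.

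Proximal-like cells of at least 1000 UMIs were thinned to 1000. The share of them with an S100a6 UMI was 52.4% in Havcr1-positive and 28.8% in Havcr1-negative cells on day 1. The shares were 50.9% against 18.8% on day 2 and 50.9% against 18.9% on day 4. On day 7 it was 34.7% and 17.1% in the first library and 36.4% and 5.56% in the second. For S100a11 the shares on day 4 were 37.0% and 14.2%, and for S100a10 46.7% and 29.3%. In the control, where 34 proximal-like cells had a Havcr1 UMI, 0% of positive cells (exact 95% upper bound 10.3%) and 0.18% of negative cells had an S100a6 UMI. Havcr1-positive cells were also deeper before thinning, with medians of 3061.5 against 1819 UMIs on day 4.

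**Figure D4:**
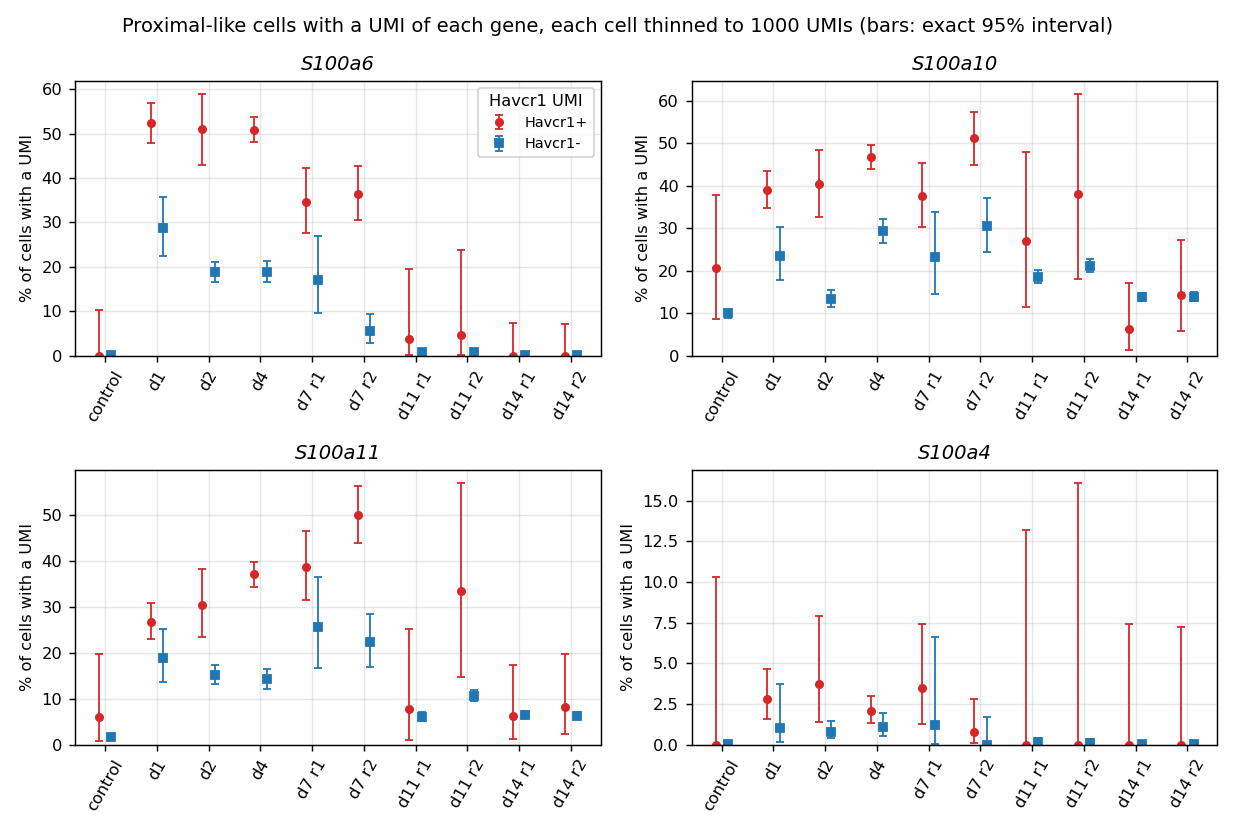
The vertical axis is the percent of proximal-like cells with a UMI of the gene, the horizontal axis the libraries. Each cell was thinned to 1000 UMIs, and cells with fewer were left out. Circles are cells with a Havcr1 UMI, squares cells without, and bars exact 95% binomial intervals. For S100a6 the circles of days 1 to 4 sit at 50.9% to 52.4% and the squares at 18.8% to 28.8%.

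For the tubular sums, totals scaled by edgeR's TMM factors gave smaller folds than CPM at early times, since these factors were higher than the control's by 0.37 to 0.52 on the log2 scale on days 1 to 4 and by 0.77 and 0.82 on day 7. They differed from it by -0.06 to 0.03 on days 11 and 14. On the TMM scale day 7 was 309 times the control for S100a6 (536 times by CPM), 9.10 times for S100a11 (15.8 by CPM), 2.67 times for S100a10 (4.62 by CPM) and 20.9 times for S100a4 (36.6 by CPM). The fitted log2 changes from day 7 to day 11 were -3.56 for S100a6, -1.62 for S100a4, -1.25 for S100a11 and -0.30 for S100a10. On this scale S100a10 stood at 328 and 460 on day 7 and at 305 and 335 on day 11, so that the libraries of these days overlapped, which they did not by CPM. The TMM-scaled S100a10 of day 14, 205 and 210, stood above the control at 148.

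Genes of the same families and partners were tested in the tubular sums with edgeR's quasi-likelihood test and Benjamini-Hochberg adjustment over all 15828 genes tested. The lists were written with earlier results of these data known, so their counts of called genes are a description. From the control to day 7, 17% of these genes were called higher and 18.2% lower at an adjusted p of 0.05, with a median log2 change of 0.05. The control is a single library, so the spread is that of the libraries of days 7, 11 and 14, and the control is assumed to vary like them. From day 7 to day 11, 23.5% were called higher and 21.7% lower, with a median of -0.07. On day 14 against the control 4.26% were called higher and 3.05% lower, or 675 and 482 genes, with a median of 0.07; with RLE size factors these became 506 and 608. The 3 comparisons share libraries and are not independent. The segment make-up of the tubular sums also differed between days. Proximal-like cells were 3521 of 5070 tubular cells in the control and 309 of 1435 and 523 of 2069 on day 7. On day 11 they were 3213 of 4150 and 3576 of 4347. The part of this in the changes was not tested.

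Of 12 other S100 genes listed, 8 were tested: on day 7 6 were higher, 1 was lower and 1 (S100a1) did not pass, with a median log2 change of 2.21. S100a9 and S100a8, the 2 chains of calprotectin, the abundant cytosolic protein of neutrophils and monocytes, rose by 5.43 ± 1.35 (SE, edgeR adjusted p = 0.0111) and 4.49 ± 1.36 (edgeR adjusted p = 0.0274). The ratio of S100a9 counts, 87 UMIs on day 7 against 3 in the control, was 65.7 (95% interval 21.8 to 325, counting error only). In tubular cells S100a8 stood at 0.24 CPM in the control and at 64.8 CPM on day 1, but at 21.7 and 1.42 CPM in the 2 libraries of day 7. Its call was lost without the first of these (1.77, edgeR adjusted p = 0.056) and with a 25% mitochondrial limit (3.83, edgeR adjusted p = 0.0505). In proximal-like cells alone the S100a9 call was lost (2.44, edgeR adjusted p = 0.128). Neutrophil markers in the tubular sums were at 2.26 CPM in the control, 29.5 CPM on day 1 and 11.9 and 7.08 CPM on day 7, and their part was not tested.

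S100a3 had 0 UMIs in control tubular cells and 1.78 and 1.80 CPM on day 7, at least 15.1-fold higher at a floor of 3 counts (edgeR adjusted p = 0.00512), at a level too low to say more. S100g, which encodes the calbindin-D9k of calcium-absorbing cells, fell by 1.20 ± 0.25 (SE, edgeR adjusted p = 0.00446), a call lost with a 25% mitochondrial limit (-0.72, edgeR adjusted p = 0.0575). On the CPM scale the fall of S100g was smaller, since the TMM factors of day 7 were above the control's. S100g was among the 10 leading genes of the distal-convoluted-like class, which had 334 cells in the control and 18 and 39 on day 7, and the part of this was not tested. S100a14 rose by 3.34 ± 0.42 (edgeR adjusted p = 0.00027), from 1.66 CPM in the control to 29.7 and 29.0 CPM on day 7, and S100a16 and S100a13 rose by 1.09 and 0.84. The 4 not tested, for low counts, were S100a5, S100a7a, S100b and S100z. S100a1 stood at 421 CPM in the control and at 774 and 972 CPM on day 7, a fitted change of 0.26 that did not pass (edgeR adjusted p = 0.396). Between days 7 and 11 5 of the 8 fell and none rose, led by S100a8 (-4.58), S100a9 (-4.57) and S100a3 (-4.02), with S100a14 at -3.28 (edgeR adjusted p = 7.7e-05). Each of the first 3 calls was lost without 1 library of day 11 (-3.98, -3.56 and -3.15, edgeR adjusted p = 0.114, 0.0812 and 0.069), and that of S100a8 also without the other (-5.54, edgeR adjusted p = 0.092). Without the first library of day 7 the S100a8 change was -1.86 (edgeR adjusted p = 0.0553). The S100a3 call was also lost with DESeq2 (adjusted p = 0.0585), and that of S100a9 in proximal-like cells alone (-1.93, edgeR adjusted p = 0.192).

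The annexins, which bind membrane phospholipids in the presence of calcium, include the partners of S100A10 and S100A11. Of 5 listed, 4 were higher on day 7 and 1 (Anxa11) did not pass, with a median log2 change of 1.42. Anxa2, the S100A10 partner, rose by 4.66 ± 0.39 (SE, edgeR adjusted p = 2.9e-05): its CPM in tubular cells was 18.3 in the control, 443, 255.6 and 749 on days 1, 2 and 4, 769 and 836 on day 7, and 92.8 and 59.1 on day 11. Anxa1, the S100A11 partner, rose by 4.70 ± 0.36 (edgeR adjusted p = 2.1e-05), from 2.54 CPM to 132 and 99.1 CPM. Anxa5 rose by 1.42 ± 0.24 (edgeR adjusted p = 0.00143) and Anxa6 by 1.10 ± 0.20 (edgeR adjusted p = 0.00224). From day 7 to day 11 4 of the 5 fell, Anxa2 by 2.62, Anxa1 by 2.47 and Anxa5 by 1.15.

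On day 14 the change from the control was 1.13 for Anxa1 (edgeR adjusted p = 0.0673) and 0.10 for Anxa2 (edgeR adjusted p = 0.874). Anxa1 passed without the first library of day 14 (1.45, edgeR adjusted p = 0.0464) and in proximal-like cells alone (2.48, edgeR adjusted p = 0.0316). It also passed without a low-count filter (1.02, edgeR adjusted p = 0.0159) and without either library of day 7 (1.13, edgeR adjusted p = 0.0482 each). Anxa2 stood at 14.97 and 22.9 CPM around the control's 18.3 CPM, whereas its partner S100a10 was above its control in both libraries. Whether the 2 genes differ in this was not tested.

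Of 8 listed clients of S100A10 and genes of plasminogen activation, 5 were higher on day 7, 1 was lower and 2 (Plau and Dlc1) did not pass, with a median of 1.89. Plaur, the urokinase receptor, and Plat, tissue plasminogen activator, rose by 7.19 ± 0.68 and 6.85 ± 0.40 (SE, edgeR adjusted p = 5.6e-05 and 1.1e-05). Plaur had 1 UMI in the control sum, and the ratio of day 7 to control counts was 317 (95% interval 56.0 to 12623, counting error only). Plat stood at 0.52 CPM in the control and at 94.1 and 114 CPM on day 7. Trpv5, an epithelial calcium channel of the distal nephron that the annexin A2 complex carries to the membrane, rose by 3.06 ± 0.36 (edgeR adjusted p = 0.000183), a call lost in proximal-like cells alone (1.53, edgeR adjusted p = 0.597). Hltf, a helicase-like factor, fell by 1.23 ± 0.18 (edgeR adjusted p = 0.000721), a fall that was smaller on the CPM scale. Between days 7 and 11 5 of the 8 fell, led by Trpv5 (-4.07), Trpv6 (-3.86) and Plaur (-3.15), and in proximal-like cells alone the calls of the first 2 were lost (-5.03 and -3.25, edgeR adjusted p = 0.23 and 0.148).

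Among 6 listed intracellular partners of S100A6 and S100A4, 3 were higher on day 7, 1 was lower and 2 (Ppfibp1 and Mdm2) did not pass, with a median of 0.55. Myh9, the non-muscle myosin heavy chain that S100A4 binds, rose by 1.73 ± 0.20 (SE, edgeR adjusted p = 0.000183). Trp53, the p53 tumour suppressor, rose by 1.40 ± 0.22 (edgeR adjusted p = 0.00104), and Sugt1, a co-chaperone, by 0.79 ± 0.24 (edgeR adjusted p = 0.0265), a call lost without the first day 7 library (0.52, edgeR adjusted p = 0.0563). Cacybp, the calcyclin-binding protein, went the other way from S100a6: it fell by 0.93 ± 0.19 (edgeR adjusted p = 0.00375). Its CPM in tubular cells was 143 in the control and 138 and 122 on day 7, so that on the CPM scale the fall was smaller. From day 7 to day 11 Myh9 fell by 2.25, Trp53 by 0.76 and Ppfibp1 by 0.69, whereas Cacybp rose by 0.54 (edgeR adjusted p = 0.0199), a call lost without the first or the second library of day 11 (edgeR adjusted p = 0.077 and 0.074) or the second of day 7 (edgeR adjusted p = 0.0503), and without a low-count filter (edgeR adjusted p = 0.0708). The Trp53 call was lost without the first library of day 11 (edgeR adjusted p = 0.0514) and that of Ppfibp1 without the second (edgeR adjusted p = 0.0972) and with all cells summed (edgeR adjusted p = 0.129). In all, 4 fell, 1 rose and 1 did not pass.

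The 4 listed receptors for S100 proteins outside the cell were split on day 7, 2 higher and 2 lower, with a median of 1.20. Tlr4 rose by 3.92 ± 0.71 (SE, edgeR adjusted p = 0.00207), from 0.24 CPM to 8.31 and 5.02 CPM. Ager, which encodes the receptor RAGE, rose by 3.10 ± 0.86 (edgeR adjusted p = 0.019), on 3 UMIs in the control and 1.78 and 1.93 CPM on day 7, a ratio of 15.9 (95% interval 4.74 to 83.1, counting error only), and the call was lost with DESeq2 (adjusted p = 0.175), without the second day 7 library (edgeR adjusted p = 0.0533) and with all cells summed (edgeR adjusted p = 0.0659). Cd36, a fatty acid transporter, fell by 4.97 ± 0.34 (edgeR adjusted p = 1.6e-05), and Bsg, basigin, fell by 0.70 ± 0.23 (edgeR adjusted p = 0.0375), a call lost without the first day 7 library (-0.52, edgeR adjusted p = 0.0855) or either of day 14 (edgeR adjusted p = 0.0761 each). The CPM of Bsg was 286 in the control and 269 and 341 on day 7, on both sides of it. Between days 7 and 11 Cd36 and Bsg rose by 4.20 and 1.18 and Tlr4 fell by 2.86, 2 higher, 1 lower and 1 not passing.

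Other calcium-binding EF-hand genes did not follow 1 direction. Of 7 tested, 2 were higher on day 7, 3 were lower and 2 (Sri and Pdcd6) did not pass, with a median of 0.13. Pvalb and Calb1, the parvalbumin and calbindin of the distal nephron, fell by 6.12 ± 0.45 and 2.48 ± 0.25 (SE, edgeR adjusted p = 1.9e-05 and 8e-05). Both were among the markers of the distal gate, and there were 18 and 39 distal-convoluted-like cells in the day 7 libraries against 334 in the control. Calm2 rose by 0.97 ± 0.21 (edgeR adjusted p = 0.00514) and Calm3 was lower, with a change of -0.79 ± 0.21 (edgeR adjusted p = 0.0145), though the CPM of Calm3 lay on both sides of the control (141 and 155 against 148). Capns1, the small calpain subunit, rose by 0.77 ± 0.20 (edgeR adjusted p = 0.0138). From day 7 to day 11 4 of the 7 rose, led by Pvalb (5.54), Calb1 (1.56) and Calm3 (1.19), 1 (Calm2) fell and 2 did not pass. The Calm2 call was lost in proximal-like cells alone (edgeR adjusted p = 0.165) and with all cells summed (edgeR adjusted p = 0.187). With only the control and day 7 in the fit, the day 7 calls of Sugt1, Bsg, Calm3 and Capns1 were lost (edgeR adjusted p = 0.0607, 0.0921, 0.0501 and 0.0575).

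On day 14 against the control, edgeR called 1 of the 38 listed genes tested, and DESeq2 called 3 (Ahnak, Plat and Cacybp). An unadjusted p under 0.05 was found for 13 of the 38 and for 4289 of all 15828 genes. Cacybp had a change of -0.58 (edgeR adjusted p = 0.084), and edgeR called it lower without a low-count filter (adjusted p = 0.0464), with only the 2 groups in the fit (adjusted p = 0.0268), without the first or the second library of day 7 (adjusted p = 0.0442 and 0.0436) and in proximal-like cells alone (-0.88, adjusted p = 0.0234). The gene called by edgeR was Ahnak, which encodes a giant scaffold protein and fell by 1.19 ± 0.24 (SE, edgeR adjusted p = 0.0209). The call was lost without the first or the second library of day 14 (edgeR adjusted p = 0.107 and 0.0574), and the sign was opposite in proximal-like cells alone (0.41, edgeR adjusted p = 0.327).

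**Figure D5:**
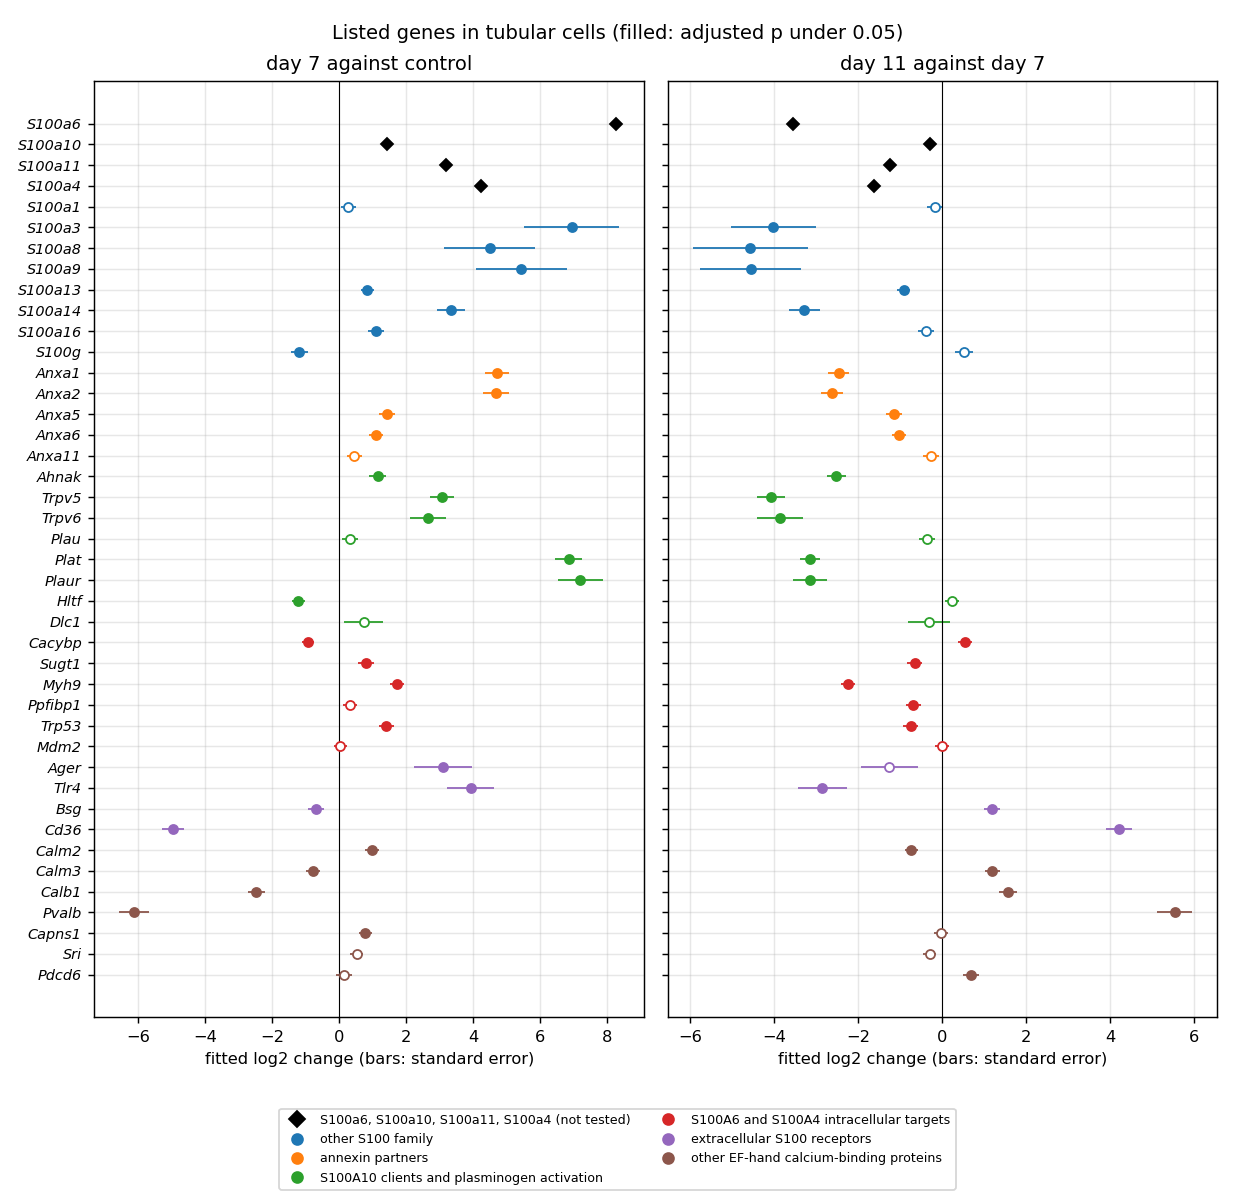
Each row is a gene and the horizontal axis its fitted log2 change in the tubular sums, at left from the control to day 7 and at right from day 7 to day 11. Diamonds are the 4 chosen genes, drawn without a test; circles are listed genes with their standard error, filled where the adjusted p is under 0.05. The changes of S100a6 are 8.26 and -3.56, and the left value of S100a3, which has 0 control counts, depends on the fit's prior count.

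In macrophage-like cells the comparison of day 11 with day 7 called 3.51% of 4188 genes higher and 0.955% lower, with a median log2 change of -0.05. There the fitted changes were 0.43 for S100a4, 0.11 for S100a10, 0.04 for S100a11 and -0.63 for S100a6, as a description. With edgeR 0 of the 25 listed genes tested in these cells passed the threshold and DESeq2 called 0. An unadjusted p under 0.05 was found for 5 of the 25 and for 781 of all 4188 genes. Among the 25 were Anxa1 (0.41, edgeR adjusted p = 0.692), Anxa2 (-0.25, edgeR adjusted p = 0.751) and Cacybp (0.18, edgeR adjusted p = 0.84). Each changed sign when 1 of the day 11 libraries, which had 109 and 68 such cells, was left out.

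The genes whose level over the 10 tubular sums was most like that of each of the 4 were ranked by Pearson's r of log2(CPM + 1) among 3257 genes with a mean of at least 50 CPM. The 10 points share their totals, and days with 2 libraries count as 2 points, so r is a description. For S100a6 the nearest genes were Anxa3 (0.99), Tmsb10 (0.98), Ccdc34 (0.98), Bola2 (0.97) and Anxa2 (0.97). For S100a10 they were Ranbp1 (0.99), Tagln2 (0.98), Tax1bp3 (0.98), Lmna (0.98) and Ankrd1 (0.98). For S100a11 they were Prpf19 (0.99), Gnb2 (0.98), Klf6 (0.98), Eif4a1 (0.98) and Ppp2r1a (0.98), and for S100a4 Tkt (0.98), Psma4 (0.96), 2200002D01Rik (0.95), Tnfrsf12a (0.95) and Npm1 (0.95). Between the 4 genes themselves r ran from 0.85 (S100a11 and S100a4) to 0.96 (S100a11 and S100a10). They were chosen for being higher in tubular cells after injury, which favours a high r, so nothing is read from these values.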

How the data were processed

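Drop-seq libraries of mouse kidney cortex (10 in all) were aligned with Bowtie2 2.2.7 to mm10, per the submitters' processing notes; whether counting used strand is not given in the sources used here. The deposited tables hold whole-number counts per gene and cell barcode, which were taken as UMI counts. Genes, lists and class markers were chosen with earlier results of these data known.

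Cells with at least 500 UMIs, 500 detected genes and at most 50% mitochondrial counts were kept, and the 5% with the highest Scrublet scores in each library were removed, since its automatic threshold marked at most 0.111% of cells. Classes required a minimum number of distinct markers (4 for tubular, 3 for a segment or other class, 2 for neutrophils), few markers of other classes, and 20 cells per library. G0s2, first listed as a neutrophil marker, was left out of the gate. Counts were summed per class and library. Tubular sums held 3368861 to 25239860 UMIs. Summed counts were tested with edgeR 4.0.16 (TMM, quasi-likelihood, one fit of all libraries with a term for each group, R 4.3.3). DESeq2 1.42.0 was an alternative. Differences between classes were tested by exact sign-flip permutation over at least 6 libraries and genes of at least 5 CPM. The test was planned for the 4 genes too, but they were chosen on tubular levels, so only its shares over all genes are given. The edgeR step was tested on simulated data. The text names the 4 genes and, from each list and comparison, the 3 called genes per direction with the largest change, with Anxa1, Anxa2 and Cacybp always; other listed genes were added after their values were seen (no alternatives were run for S100a13, S100a14, S100a16 and Anxa6), and 1 listed gene was left out of all lists as not reported here. Intervals and floors (3 counts) cover counting error only. The labels give the 2 libraries of a day replicate numbers; same-numbered libraries of days 7, 11 and 14 did not deviate together (correlations -0.064 to 0.077).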

Additional observations from a re-analysis of the deposited data

Results flagged for a closer look

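Within libraries, the difference between endothelial-like and tubular cells in log2(CPM + 1) of S100a6 was below 0 in both libraries of day 7 (-0.54 and -0.19) and above 0 in both of day 11 (2.67 and 3.91) and both of day 14 (8.48 and 6.88). The mean on day 11 was higher by 3.66 and that on day 14 by 8.05 than on day 7. Over the same days tubular S100a6 went from 730 and 841 CPM to 1.68 and 5.51 CPM, and endothelial-like S100a6 from 502 and 737 CPM to 954 and 768 CPM. The difference between days was not tested here or in the next cases. The genes were chosen on their tubular levels, so nothing is read from these changes of sign. S100a11 changed sign in the same comparison, from -1.14 and -1.32 on day 7 to 0.37 and 0.91 (day 11) or 1.06 and 1.18 (day 14), so that the means differed by 1.87 and 2.35.

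Macrophage-like cells against tubular cells also changed sign between days. For S100a6 the difference was -0.81 and -0.64 on day 7, 2.32 and 3.23 on day 11 (higher by 3.50) and 6.56 and 6.16 on day 14 (higher by 7.08). For S100a10 it was -0.58 and -0.73 on day 7 and 0.18 and 0.61 on day 14, a difference of 1.05 between days.

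In Havcr1-positive against Havcr1-negative tubular cells, the S100a4 difference was 0.28 and 0.49 for day 7, -1.10 and -1.76 for day 11, then -0.50 and -0.30 for day 14, with means lower than on day 7 by a change of -1.81 and -0.78. The Havcr1-positive tubular cells of days 11 and 14 held 0 S100a4 UMIs in all 4 libraries, in 27 to 50 cells each, so these values rest on the few UMIs of the Havcr1-negative cells.

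Cells that no class took, and cells that carried markers of more than 1 class (mixed cells), held the 4 genes above their level in the control in 8 or 9 of the 9 injured libraries. The exceptions were S100a10 and S100a4 in unassigned cells of the second library of day 14 (158 against 275 CPM and 10.8 against 14.8 CPM), S100a4 in mixed cells of the second library of day 7 (27.4 against 41 CPM) and S100a6 in mixed cells of the first library of day 11 (109 against 134 CPM). In unassigned cells S100a6 reached 2781 CPM on day 4 against 67.8 CPM in the control, and S100a10 reached 826 CPM on day 4 against 275 CPM. S100a11 reached 1129 CPM in the second library of day 7 against 250 CPM, and S100a4 reached 94.7 CPM there against 14.8 CPM. In mixed cells S100a6 reached 2328 CPM on day 4 against 134 CPM, and S100a10 reached 899 CPM on day 2 against 284 CPM. S100a11 reached 1158 CPM in the second library of day 7 against 216 CPM, and S100a4 reached 211 CPM on day 2 against 41 CPM.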

How the results depend on the processing

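Alternatives changed 1 choice at a time; leaving out the control or the single libraries of days 1, 2 and 4 was added after seeing the data. The day 7 levels fell under TMM-scaled totals, to 553.8 for S100a6, 394.4 for S100a10 and 590.9 for S100a11. DESeq2 called 4075 genes from the control to day 7 (edgeR 5579), 5667 between days 7 and 11 (7145) and 908 on day 14 (1157). In macrophage-like cells between days 7 and 11 DESeq2 called 205 (edgeR 187). The 7145 genes called between days 7 and 11 became 4642 to 6768 without single libraries, and the 5579 called from the control to day 7 became 4981 to 5349. The 1157 called on day 14 became 229 to 2228 without single libraries, 2326 without a low-count filter and 2875 with only the 2 groups in the fit. They were 229 and 426 without the second and first library of day 14, and 2215 and 2228 without those of day 7. In macrophage-like cells 187 became 71 to 323 (97 and 71 without a library of day 11, 323 without the second of day 7). Same-numbered libraries were not paired, and a replicate block between days 7 and 11 gave 7058 calls in tubular and 183 in macrophage-like cells. Between classes, the S100a11 difference of macrophage-like from tubular cells was -0.72 with 50 cells, and the S100a10 difference of stromal and mural cells was -1.24 under a stricter gate and -2.21 to -1.19 without single libraries, all without a test, as are the next. The S100a10 difference of Havcr1-positive cells was 0.48 with a 25% mitochondrial limit, 0.51 with 50 cells and 0.47 to 0.63 without single libraries. In no-segment cells that of S100a10 was 0.46 with a 25% limit, 0.32 under a stricter gate and 0.30 to 0.45 without single libraries, and that of S100a4 was 0.36 with a pseudocount of 10 and 0.50 to 0.87 without single libraries. Differences near 0 changed sign: S100a10 in macrophage-like cells under a stricter gate (-0.088); S100a11 in Havcr1-positive cells with a 25% limit (-0.031), a stricter gate (-0.013), 50 cells (-0.098) and without day 4 (-0.031) or the first library of day 11 (range -0.11 to 0.071); S100a4 there without day 2 (-0.069) or day 4 (range -0.13 to 0.32); and S100a11 in endothelial-like cells without the control (range -0.00022 to 0.41). On day 14 Ahnak changed sign in proximal-like cells (0.41), and Anxa2 without a filter (-0.011), with a 25% limit (-0.063) and without the second library (-0.23; 0.37 without the first). In macrophage-like cells so did Anxa1 (range -1.25 to 1.25), Anxa2 (range -0.90 to 0.27) and Cacybp (range -0.13 to 0.43) without a library of day 11, and Cacybp under a stricter gate (-0.020). The cause of these changes was not tested. The 7 control UMIs of S100a4 and the 44 control macrophage-like cells limit what can be said of either.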
